A study of Mus musculus with 23 samples.

Results

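Olfr923, Olfr983, Olfr1377 and Olfr491 are 4 mouse odorant receptor genes. They stood higher in RNA pulled down from olfactory epithelium already after exposure to the 1% dose of acetophenone. They were picked on that readout, as the 4 receptors higher than same-litter controls with the largest test statistic, out of 234 with enough counts and 1102 odorant receptors among the 23481 genes of the count files. Their levels at 1% acetophenone are therefore given as a description with no test. Tests were kept for contrasts between libraries that took no part in the choice. The spread in the test at 100% acetophenone was estimated over all 11 acetophenone libraries, the 1% ones included. Its p-values are therefore not wholly independent of the choice.

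The study sequenced RNA pulled down from homogenised olfactory epithelium with an antibody to the phosphorylated form of ribosomal protein S6 (pS6), and asked which receptors odors activate in the living animal. All groups were C57BL/6 mice at postnatal day 21, exposed for 1 h. The acetophenone experiment comprised 5 libraries of controls (litters 1 to 5), 3 of 1% acetophenone (litters 3 to 5) and 3 of 100% (litters 1 to 3). In the experiment with TMT (trimethylthiazoline, a compound of fox secretions), control, 1% and 100% were each sampled in 4 other litters, also numbered 1 to 4. The labels say only "control" for the unexposed groups, name no genotype or transgene, and do not say how many animals made up a library.

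Odorant receptors are G protein-coupled receptors, and a mature olfactory sensory neuron transcribes a single receptor gene from a single allele. Odor binding activates the G protein subunit encoded by Gnal, then adenylyl cyclase Adcy3 and the cyclic nucleotide-gated channel with the subunit Cnga2, which depolarises the neuron. S6 on its ribosomes becomes phosphorylated after activity, so receptor RNA enriched in the pull-down points to the neurons that carried that receptor. Acetophenone is a sweet-smelling aromatic ketone and a standard ligand in work on mouse receptors.

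The 4 genes lie in 3 regions of the genome and are not near-copies of one another. Positions are GRCm38 (mm10), from GENCODE M21. Olfr923 (ENSMUSG00000044798.7) lies on chromosome 9, 38826545 to 38830300, plus strand, with 2 exons, and its single coding exon spans 38827693 to 38828643 and encodes 317 residues. Olfr983 (ENSMUSG00000044205.7) lies on the same chromosome, 40086908 to 40093595, minus strand, with 2 exons and a coding exon at 40092020 to 40092964 for 315 residues. Olfr1377 (ENSMUSG00000061952.6) is on chromosome 11, 50981967 to 50986593, plus strand, with 2 exons and a coding exon at 50984703 to 50985623 for 307 residues. Olfr491 (ENSMUSG00000094612.3) is on chromosome 7, 108313451 to 108318827, plus strand, with 3 exons and a coding exon at 108316896 to 108317825 for 310 residues.

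The coding windows below show how far the 4 receptors share sequence at the best conserved place of the family and how quickly they part on either side of it. Each is 90 bases of the coding exon, 5′ to 3′ on the gene's strand. The 30 capitals are the codons around the aspartate-arginine-tyrosine motif at the cytoplasmic end of transmembrane helix 3, where the receptor meets its G protein. The windows are chr9:38828032-38828121 (Olfr923), chr9:40092545-40092634 on the minus strand (Olfr983), chr11:50985024-50985113 (Olfr1377) and chr7:108317217-108317306 (Olfr491).
Olfr923: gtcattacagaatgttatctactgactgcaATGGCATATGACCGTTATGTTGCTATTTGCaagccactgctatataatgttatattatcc
Olfr983: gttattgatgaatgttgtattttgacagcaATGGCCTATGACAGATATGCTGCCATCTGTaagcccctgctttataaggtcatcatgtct
Olfr1377: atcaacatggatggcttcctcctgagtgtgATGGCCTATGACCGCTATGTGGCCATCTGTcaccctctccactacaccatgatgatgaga
Olfr491: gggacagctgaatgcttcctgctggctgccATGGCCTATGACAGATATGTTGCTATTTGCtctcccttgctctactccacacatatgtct

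Between 23 and 27 of the 30 capitals were identical in any pair, the most between Olfr923 and Olfr491 and the fewest between Olfr923 and Olfr983. Over the whole window 66 of 90 bases were identical between Olfr923 and Olfr983, and 52 to 57 in the other pairs. The closest pair over the window was also the closest in whole proteins translated from the GENCODE transcripts. Olfr923 and Olfr983 were 63.5% identical, and the other 5 pairs were 45.3 to 47.2% identical, where the median identity of each of the 4 to the other 1092 receptors was 41.9 to 42.4%.

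The libraries carried RNA of olfactory neurons and of other cells. The 6 marker genes of mature olfactory neurons (Omp, Gnal, Adcy3, Cnga2, Cnga4 and Stoml3) summed to between 1613 and 6484.6 CPM (counts scaled to a common library size after TMM normalisation), and none was at 0 throughout. Markers of sustentacular (supporting) cells summed to between 1732 and 5484 CPM, and those of glands to between 1268 and 11786 CPM. The pull-down was therefore not of olfactory neurons alone. Unique counts per library ran from 2118099 to 9526932. Receptors took 0.134 to 0.820% of them in the acetophenone experiment, with 453 to 789 receptors detected, and 0.0232 to 0.267% in the TMT experiment, with 167 to 636. The acetophenone libraries of litters 2 and 3 stood apart from the rest: Junb had 0 counts in all 5 of them and 233 to 534 counts in the other 6, and Adcy3 had 13 to 40 counts in litter 3 against 891 to 3090 in the other litters. Each of those 2 litters holds its own control, so the difference is shared by both sides of a within-litter comparison.

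At 1% acetophenone, Olfr923 was the receptor with the clearest difference. Its counts went from 12 in the control to 357 at 1% in litter 3, from 23 to 223 in litter 4 and from 4 to 114 in litter 5. In CPM these were 4.43, 5.16 and 1.14 in the controls and 141, 55.6 and 33.5 with odor, so every odor library stood far above every control, and the ratio within litters was between 10.8 and 31.9. The fitted log2 fold change with litter as a block was 4.28 (SE 0.34). Among receptor counts alone, Olfr923 made up 2.08% ± 0.582 (SD, n = 3) at 1% against 0.199% ± 0.0959 (SD, n = 5) in the controls of all litters.

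Olfr983, the closest of the 4 to Olfr923 in sequence, went from 9 to 86 counts in litter 3, from 23 to 61 in litter 4 and from 7 to 37 in litter 5. The CPM values were 3.32, 5.16 and 1.99 in the controls against 34.0, 15.2 and 10.9 with odor. The groups did not overlap, and the ratio was highest in litter 3, at 10.2, and lowest in litter 4, at 2.95. Its fitted log2 fold change was 2.39 (SE 0.43).

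Olfr1377 had the fewest control counts. It went from 14 to 46 counts in litter 3, from 4 to 45 in litter 4 and from 3 to 52 in litter 5, or from 5.17, 0.898 and 0.853 CPM to 18.2, 11.2 and 15.3. All 3 odor libraries were above all 3 controls. The fitted log2 fold change was 2.98 (SE 0.53), and it was 3.85 without litter 3, whose ratio of 3.52 was well below the 12.5 of litter 4. With 3 counts in the control of litter 5, no ratio was formed there.

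Olfr491 went from 36 to 105 counts in litter 3, from 71 to 276 in litter 4 and from 12 to 74 in litter 5. These were 13.3, 15.9 and 3.41 CPM in the controls and 41.5, 68.8 and 21.7 CPM at 1%, again with no overlap, and the ratios of 3.12 to 6.36 were the most even of the 4. The fitted log2 fold change was 2.09 (SE 0.26). In litter 4 it took 3.09% of all receptor counts.

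Of the 12077 genes fitted at 1% acetophenone, 1.68% had all odor libraries above all controls, as the 4 receptors did. That share used the values that chose the 4, so nothing is read from it. In the order of the fit, Olfr983 was the last receptor inside the choice. The next receptors outside it that were higher with odor were Olfr1104 (log2 2.23, SE 0.46), Olfr745 (2.06, SE 0.44) and Olfr136 (2.35, SE 0.56), beside 2.09 (SE 0.26) for Olfr491. Their folds were close to that of Olfr491 and their standard errors larger. Olfr140, which ranked between Olfr983 and Olfr1104, was lower with odor (log2 -0.74, SE 0.14). All receptors together changed by less: their share of counts was 1.49 times the control in litter 3, 0.90 in litter 4 and 1.94 in litter 5. The summed markers of mature neurons were 0.871 to 1.03 times the control, while those of glands were 1.29 to 1.75 times it and those of ensheathing glia 1.03 to 1.39 times it, each higher in 3 of 3 litters. Their part in the values was not tested.

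**Figure D1:**
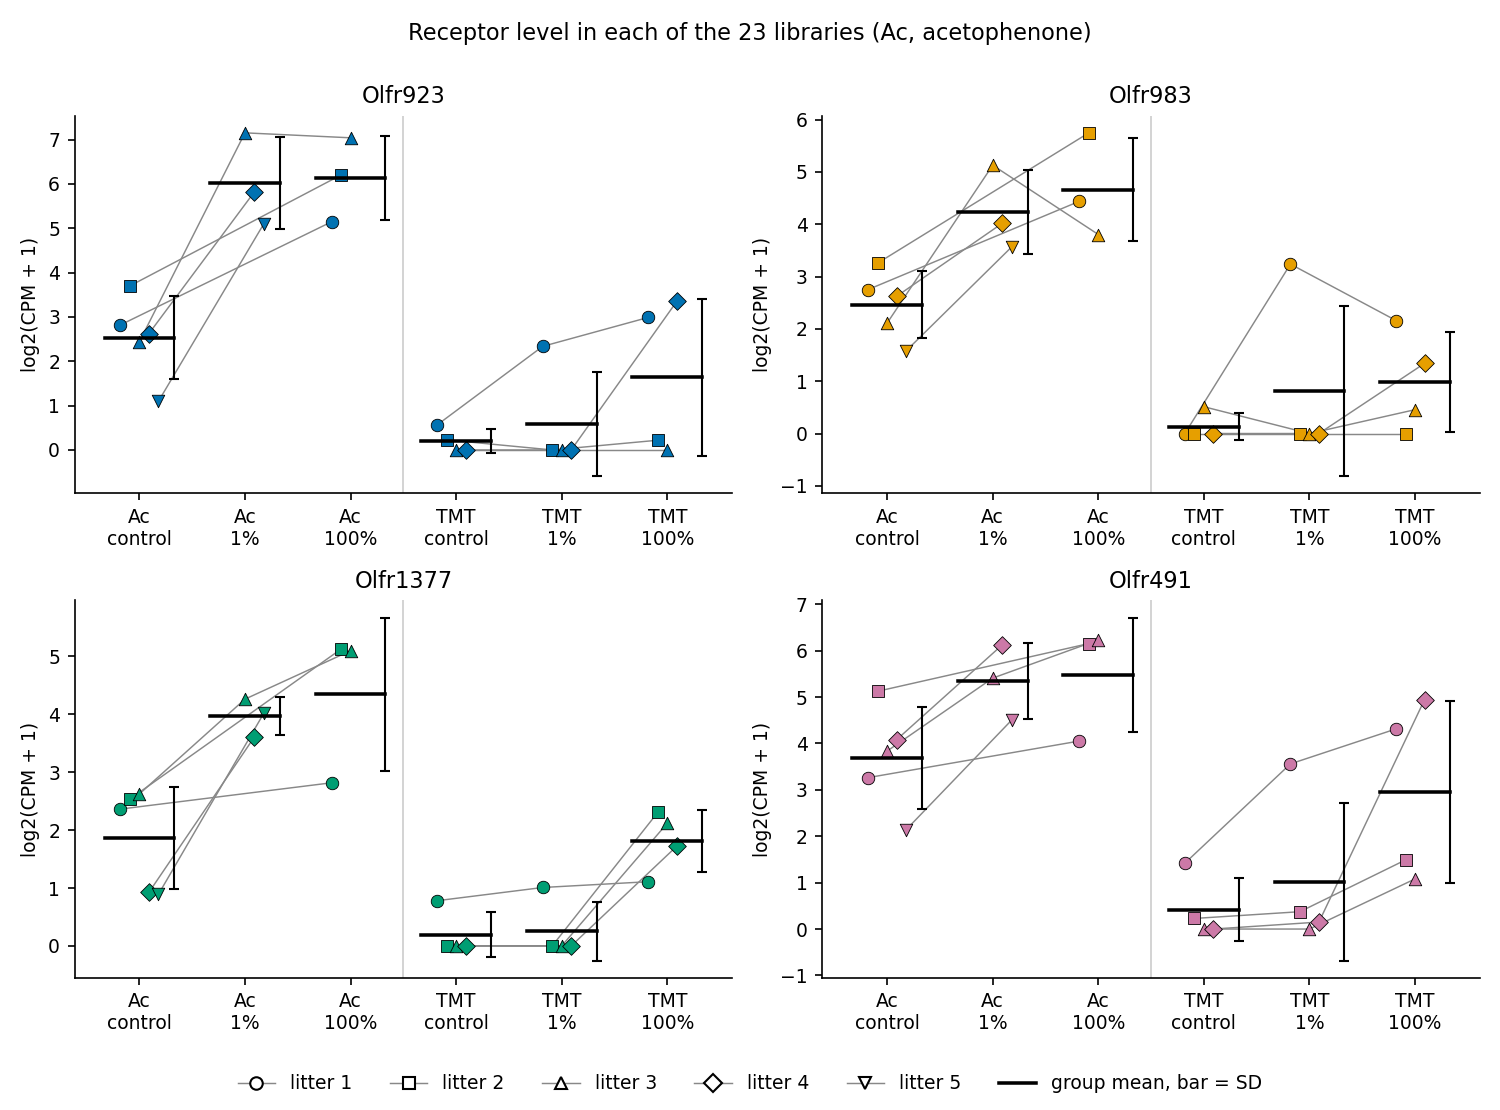
Level of each receptor in every library as log2(CPM + 1), by odor and dose, with 1 point per library, grey lines joining libraries of a litter, and a black bar for the group mean with its SD. In the acetophenone panels the 1% libraries lie above all controls of litters 3 to 5, while most TMT controls lie at 0.

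The 100% dose gave a test on mice that took no part in the choice, because litters 1 and 2 have no 1% library. All 4 receptors were higher at 100% in both litters, and Olfr923, Olfr983 and Olfr1377 had both odor libraries above both controls. None of them passed the test across all genes, with or without litter as a block; with 2 litters this does not show that they did not differ. Of the genes tested, 26.2% were higher in both litters and 10.5% had groups that did not overlap, while among the 404 receptors tested these shares were 35.1% and 16.3%. A higher level in the pull-down can come from more activated neurons of a type or from more RNA in each, and these cannot be told apart in bulk tissue.

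Olfr923 went from 19 to 108 counts in litter 1 and from 35 to 216 in litter 2, or from 6.06 and 11.99 CPM to 34.4 and 72.6. Both ratios were close, at 5.68 and 6.05. The log2 fold change was 2.55 (SE 0.85), with an unadjusted p of 0.0147 and an edgeR adjusted p of 1. The fit that blocks on litter gave 2.54 (SE 0.35), and its edgeR adjusted p was 0.104. A larger fold change than that of Olfr923 was seen in 35 of the 404 receptors.

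Olfr983 went from 18 to 65 counts in litter 1 and from 25 to 157 in litter 2, or from 5.74 and 8.56 CPM to 20.7 and 52.7. Both odor libraries were above both controls, at 3.61 and 6.16 times their own. The log2 fold change was 2.33 (SE 0.74, unadjusted p = 0.0117, edgeR adjusted p = 1), and the fit that blocks on litter gave 2.24 (SE 0.47, edgeR adjusted p = 0.539).

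Olfr1377 differed between the litters. It had 13 counts in the control and 19 at 100% in litter 1, a ratio of 1.46, and 14 and 101 counts in litter 2, a ratio of 7.07. In CPM these were 4.14 and 6.05 in litter 1 and 4.80 and 33.9 in litter 2, so litter 2 carried nearly the whole difference. The log2 fold change was 2.12 (SE 0.98, unadjusted p = 0.0589, edgeR adjusted p = 1), and it was 0.45 without the 100% library of litter 2. The fit that blocks on litter gave 1.77 (SE 0.68, unadjusted p = 0.0285, edgeR adjusted p = 0.677).

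Olfr491 had the smallest difference at 100%. It went from 27 to 49 counts in litter 1 and from 99 to 209 in litter 2, or from 8.61 to 15.6 and from 33.9 to 70.2 CPM. The control of litter 2 lay above the odor library of litter 1, so the groups overlapped, although the ratios within litters were alike, at 1.81 and 2.07. The log2 fold change was 0.99 (SE 0.96, unadjusted p = 0.328, edgeR adjusted p = 1), and without the 100% library of litter 2 it was -0.42. With litter as a block it was 0.95 with a smaller standard error (0.29, unadjusted p = 0.0087, edgeR adjusted p = 0.677), and 22 of the 404 receptors had a smaller p, against 114 without the block. In the blocked fit all 4 had an unadjusted p under 0.05, as did 3.73% of all genes with a higher level and 3.33% with a lower one. The spread in that fit drew on the same 1% and control pairs in which the 4 were picked for a large test statistic. Its p-values and the order of receptors by p can therefore favour the 4, and no support is drawn from them.

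The median log2 fold change of the 4 receptors was 2.23, beside 0.33 for all 404 receptors and 0.00 for all 12873 genes tested. The test called 0 genes after adjustment (0.0% higher), with edgeR and with DESeq2, and edgeR gave 85 genes (0.66%) an unadjusted p under 0.05 with a higher level and 59 (0.458%) with a lower one. All receptors together took 1.41 and 1.498 times the share of the control in litters 1 and 2, and 1.69 times in litter 3. Scaled to receptor counts, the log2 fold changes were smaller but positive: 2.08 for Olfr923, 1.72 for Olfr983, 1.20 for Olfr1377 and 0.47 for Olfr491. The summed markers of mature olfactory neurons were 1.12 to 1.58 times the control at 100%, higher in 3 of 3 litters, and those of horizontal basal cells 1.01 to 1.66 times it, also higher in 3 of 3. The markers of immune cells were 0.747 to 0.886 times the control and those of ensheathing glia 0.384 to 0.946 times it, both lower in 3 of 3. Their part in the result was not tested.

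**Figure D2:**
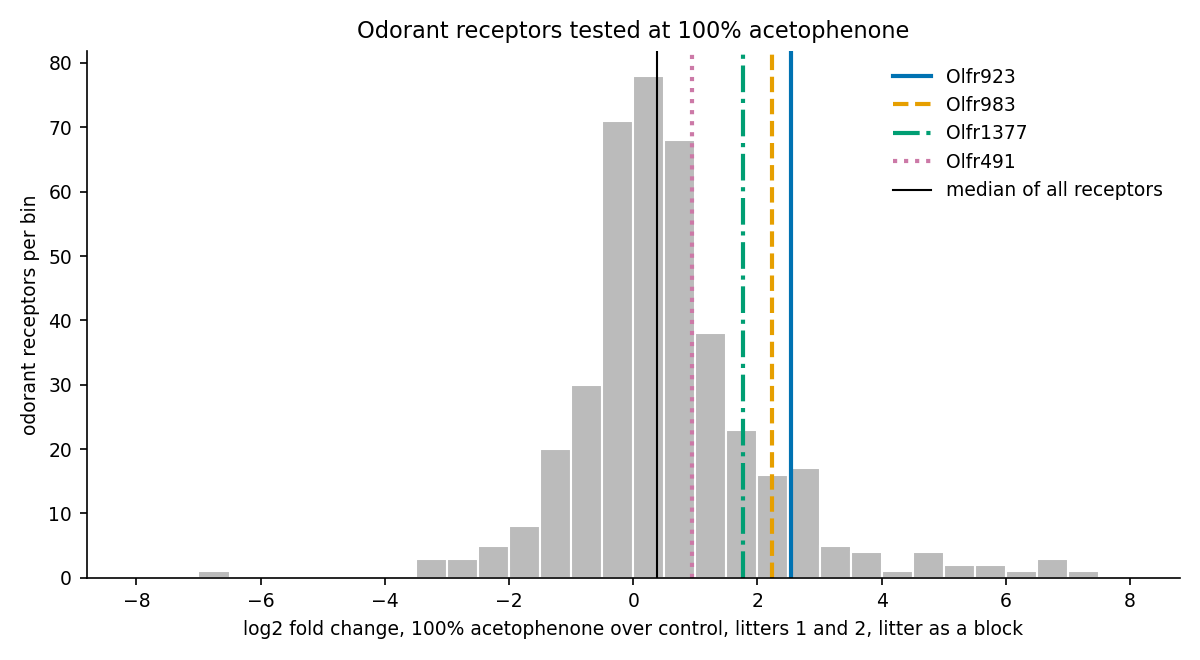
Histogram of log2 fold changes at 100% acetophenone over control in litters 1 and 2, with litter as a block, for the 404 receptors that passed the filter. Coloured lines mark the 4 receptors, at 0.95 for Olfr491, 1.77 for Olfr1377, 2.24 for Olfr983 and 2.54 for Olfr923, all to the right of the receptor median of 0.38.

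Litter 3 adds another pair at 100%, whose control was also part of the choice at 1%, so its values are a description and no test of the 4 is drawn from them. With litters 1 to 3 and litter as a block, 11 of 11564 genes were higher (0.0951%) and none lower at an edgeR adjusted p under 0.05. The log2 fold changes in that fit were 3.24 for Olfr923 (SE 0.43), 2.16 for Olfr983 (SE 0.37), 2.09 for Olfr1377 (SE 0.51) and 1.46 for Olfr491 (SE 0.34). Olfr923 was among the 11, a call that drew on the control of litter 3.

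**Figure D3:**
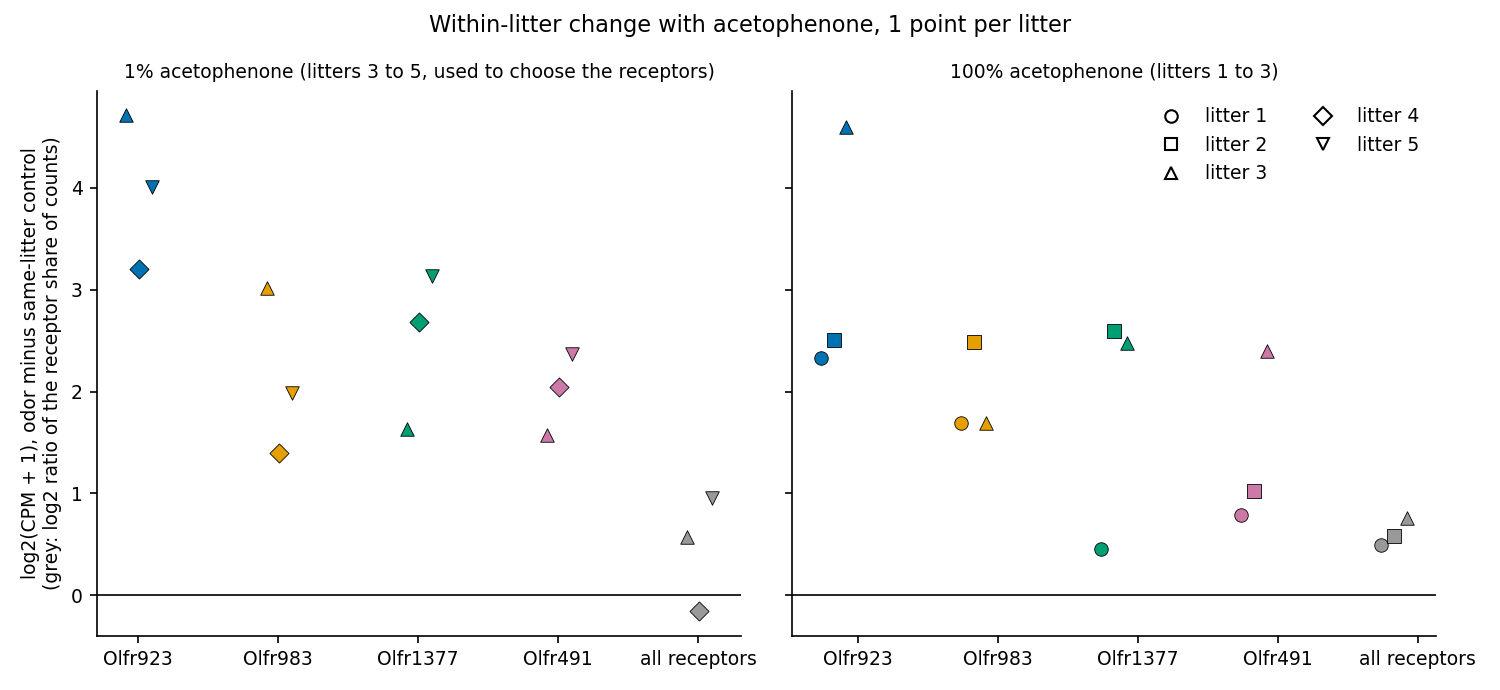
Change within each litter at 1% (left) and 100% (right) acetophenone, as the odor library minus its own control on the log2(CPM + 1) scale, with marker shape for the litter and grey points for the share of all receptors. Every point of the 4 receptors lies above 0, and Olfr923 in litter 3 is the highest at both doses.

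Litter 3 is also the one litter with both doses, 1 library each, so the dose comparison has no replicate and no test. The 1% library of litter 3 was among those in which the 4 were picked for a higher level with odor. That choice can lower the ratio of the 100% to the 1% library, so no dose order is read from it. Olfr923 stood at 4.43 CPM in the control, 141 at 1% and 131 at 100%. The ratio of the 100% to the 1% library was 0.925, with a 95% interval of 0.793 to 1.08 that covers counting error only. Olfr983 was lower at the higher dose: 3.32, 34.0 and 13.0 CPM, a ratio of 0.382 (0.246 to 0.579). Olfr1377 and Olfr491 were higher at the higher dose. Olfr1377 read 5.17, 18.2 and 33.2 CPM, a ratio of 1.83 (1.26 to 2.68), and Olfr491 read 13.3, 41.5 and 74.2 CPM, a ratio of 1.79 (1.40 to 2.29). The 2 libraries differed in their receptor share, and as a share of receptor counts the ratios were 0.771 for Olfr923, 0.318 for Olfr983, 1.52 for Olfr1377 and 1.49 for Olfr491.

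**Figure D4:**
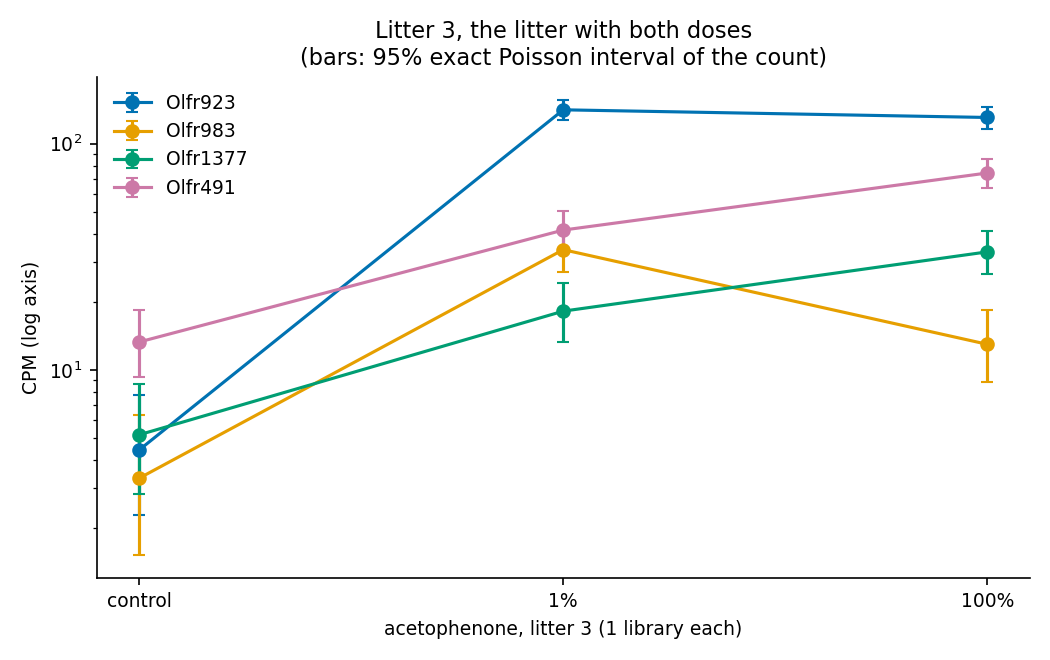
CPM of each receptor in the 3 libraries of litter 3 on a log axis, with bars for the 95% exact Poisson interval of the count. Olfr923 is level between 141 CPM at 1% and 131 CPM at 100%, Olfr983 is lower at 100% (13.0 CPM) than at 1% (34.0 CPM), and Olfr1377 and Olfr491 are higher.

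Over all litters, the 100% dose had the higher mean CPM for each of the 4, by less than the spread. Olfr923 stood at 79.2 CPM ± 48.4 (SD, n = 3) at 100%, 76.7 ± 56.9 (SD, n = 3) at 1% and 5.76 ± 3.95 (SD, n = 5) in controls. Olfr983 stood at 28.8 ± 21.1, 20.02 ± 12.3 and 4.96 ± 2.51 in the same order of groups. Olfr1377 stood at 24.4 ± 15.9, 14.9 ± 3.50 and 3.17 ± 2.13, and Olfr491 at 53.3 ± 32.7, 44.0 ± 23.6 and 15.0 ± 11.6. The gap between the doses was smaller than the SD of the 100% group in each case, and the doses share only litter 3. In each case both doses had means above that of the controls. The 1% libraries are those in which the 4 were picked, which can favour that dose in means and shares. No order of the doses is read from either. As a share of receptor counts the order of the doses turned for 3 of the 4. Olfr923 took 1.40% ± 0.392 (SD, n = 3) at 100% against 2.08% ± 0.582 at 1%, with overlapping groups. Olfr1377 took 0.392% ± 0.126 against 0.483% ± 0.174, and Olfr491 0.879% ± 0.211 against 1.56% ± 1.33. The share of Olfr983 was nearly level, at 0.586% ± 0.357 against 0.568% ± 0.112.

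TMT is a thiazoline rather than an aromatic ketone, and its libraries show what the same receptors did with another odor. The counts were low, and 0 was common. For Olfr923 the controls had 2, 1, 0 and 0 counts in litters 1 to 4, the 1% libraries 12, 0, 0 and 0, and the 100% libraries 18, 1, 0 and 72. Only litters 1 and 4 held more than 1 count at 100%, at 6.94 and 9.20 CPM. For Olfr983 the controls had 0, 0, 3 and 0 counts, the 1% libraries 25, 0, 0 and 0, and the 100% libraries 9, 0, 1 and 12. A count of 0 allows up to 0.315 to 0.998 CPM, depending on the library. At 100% both receptors stood highest in litters 1 and 4.

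In CPM, Olfr1377 was the one receptor of the 4 whose 100% TMT libraries all lay above all controls. In litter 1 this rested on the scaling, as the control and the 100% library held 3 counts each. As a share of receptor counts, that control took 0.0609% and that 100% library 0.0585%, so the groups overlapped. The controls had 3, 0, 0 and 0 counts and the 100% libraries 3, 24, 9 and 18, or 0.718 CPM and 3 zeros against 1.16, 3.95, 3.34 and 2.30 CPM. Among all genes with a count, 3.21% had all 100% libraries above all controls in CPM (1.85% of receptors). At 1% TMT it had 3, 0, 0 and 0 counts, as in the controls. Its mean was 2.69 CPM ± 1.23 (SD, n = 4) at 100%, 0.253 ± 0.506 at 1% and 0.179 ± 0.359 in controls.

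Olfr491 was the one of the 4 with enough counts to pass the filter on low counts, which it did mainly through odor libraries. When a fit held only the controls and 1 dose of TMT, none of the 4 passed the filter. Its filtered fits therefore depend on the libraries where it was high. The controls had 7, 1, 0 and 0 counts, the 1% libraries 32, 2, 0 and 1, and the 100% libraries 49, 11, 3 and 233. In CPM the controls were 1.68, 0.171 and 2 zeros against 18.9, 1.81, 1.11 and 29.8 at 100%, higher in 4 of 4 litters (13.2% of genes tested were), with the control of litter 1 above the odor library of litter 3. The means were 12.9 CPM ± 13.9 (SD, n = 4) at 100%, 2.80 ± 5.33 at 1% and 0.462 ± 0.813 in controls, each gap smaller than the larger SD. The log2 fold change at 100% was 4.95 (SE 1.85, edgeR adjusted p = 0.254), in a fit where 0 genes passed with edgeR and 463 with DESeq2, and 8.33% of genes (higher) and 6.36% (lower) had an unadjusted p below 0.05. The blocked fit gave 5.84 (SE 1.42, edgeR adjusted p = 0.0553), in a fit that called 1.84% of genes higher and 0.529% lower. When genes with low counts were kept and litter was a block, a setting added after the data had been seen, it passed, with 5.82 (edgeR adjusted p = 0.025), where 2.12% of genes were called higher. At 1% TMT the log2 fold change was 2.65 (SE 1.77, edgeR adjusted p = 0.999; unadjusted p below 0.05 for 2.94% of genes, higher, and 1.35%, lower), and without the 1% library of litter 1 it was -1.56.

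Without the filter, the log2 fold changes at 100% TMT were 4.61 for Olfr923, 3.32 for Olfr983 and 3.88 for Olfr1377 (edgeR adjusted p from 0.357 to 0.49), and Olfr1377 had an edgeR adjusted p of 0.117 with litter as a block. These fits rest on controls with 3 counts or fewer and depend on how a fit treats counts of 0. All receptors together took 1.38 to 5.28 times the share of the control at 100% TMT, the most in litter 4, and the summed markers of mature neurons were 1.08 to 1.91 times the control, higher in 4 of 4 litters. Markers of immature neurons were 0.581 to 0.715 times the control and those of ciliated respiratory cells 0.762 to 0.941 times it, both lower in 4 of 4. Their part in these values was not tested.

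**Figure D5:**
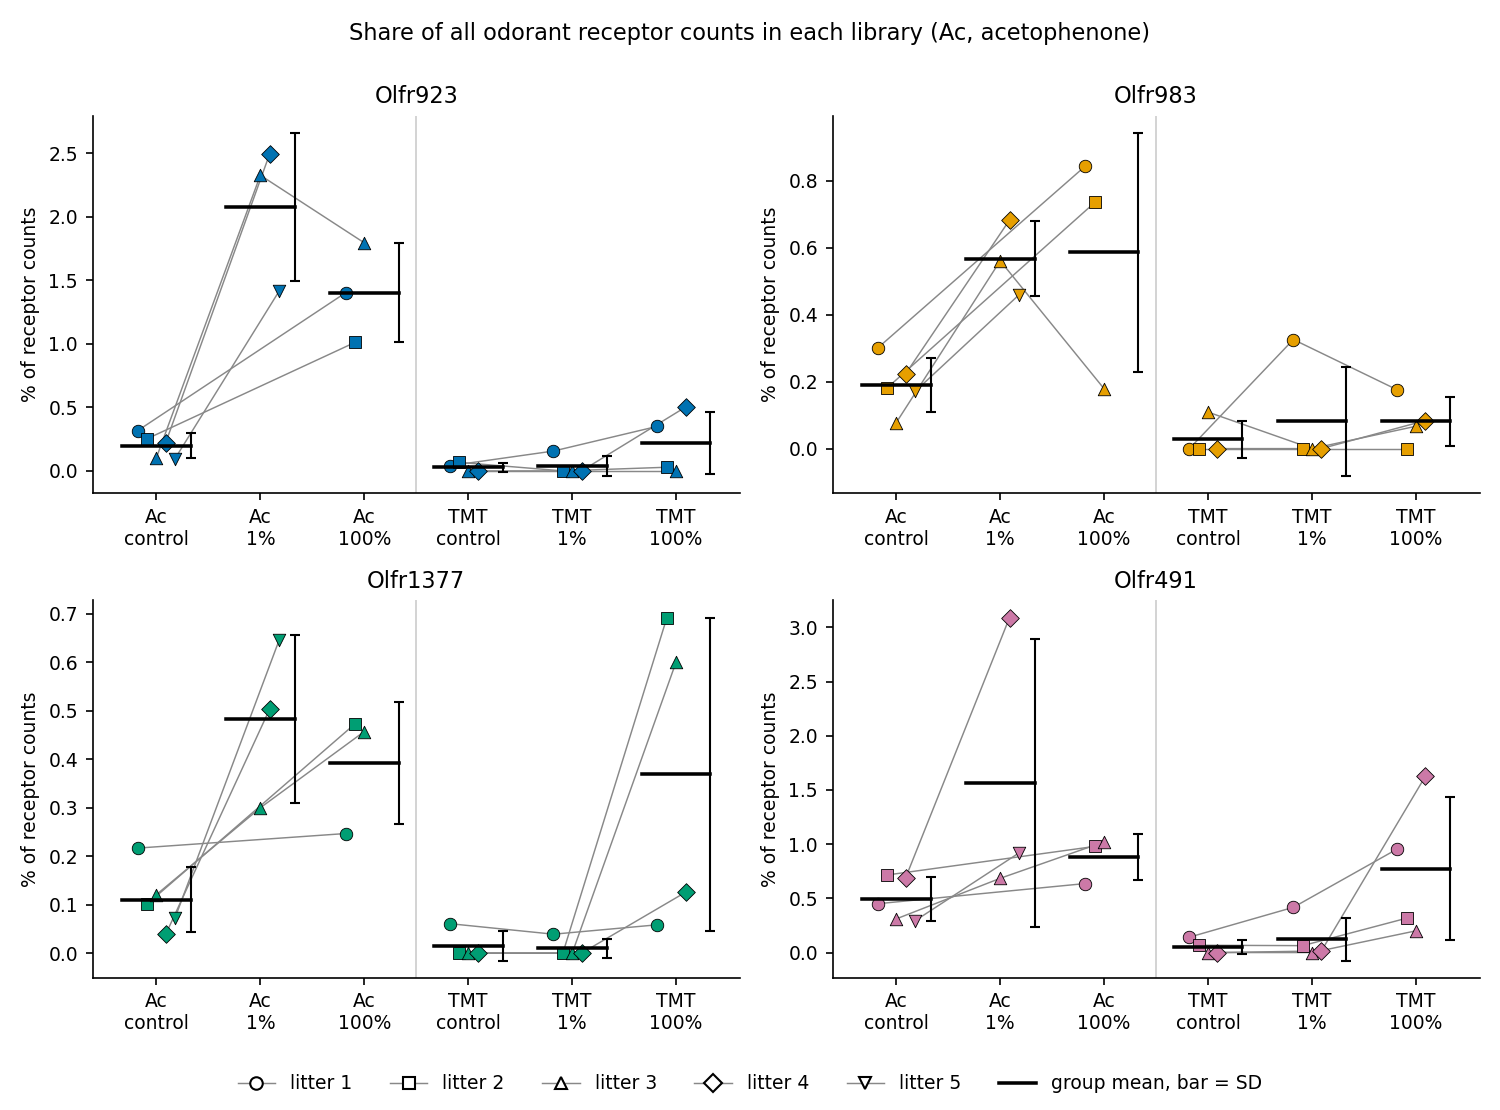
Share of all odorant receptor counts taken by each receptor in every library, in percent, with lines joining libraries of a litter and a black bar for the group mean with its SD. Olfr923 takes 1.01 to 2.497% in the odor libraries of the acetophenone experiment and at most 0.503% in the TMT experiment, while Olfr491 reaches 3.09% at 1% acetophenone and 1.63% at 100% TMT.

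The difference between the odors was tested directly, as the 100% acetophenone response in litters 1 and 2 minus the 100% TMT response. None of the 4 passed, and the test called 0 genes in all (0.0% lower), with edgeR and with DESeq2 (0.889% of genes, higher, and 2.34%, lower, had an unadjusted p below 0.05 in edgeR). The differences were -2.08 for Olfr923 (SE 2.11), -0.73 for Olfr983 (SE 1.93), -1.81 for Olfr1377 (SE 1.67) and -3.93 for Olfr491 (SE 2.28), each with an edgeR adjusted p of 1. The median over all 431 receptors tested was -1.64, so the negative sign was not a mark of these 4. The TMT side rests on controls with at most 7 counts of any of the 4, and its size depends on how a fit treats counts of 0. Of the 4, only Olfr491 passed the filter on low counts among the TMT libraries. No larger response to TMT is read from the sign. In the blocked fit Olfr491 had -4.55 (SE 1.41, edgeR adjusted p = 0.331).

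The receptors nearest in sequence to the 4 gave mixed values at 100% acetophenone in litters 1 and 2, and none passed the test. Olfr147 and Olfr904, at 70.98 and 69.03% identity the nearest to Olfr923, had 0 and 13 counts and 0 and 0 counts in the controls of litters 1 and 2, against 19 and 127 and 3 and 12 counts at 100%. Olfr888, 82.2% identical to Olfr983, had 0 counts in 22 of 23 libraries, and Olfr887, at 80.9%, had 0 and 2 counts in those controls and 13 and 9 at 100%. Olfr473 and Olfr477, at 81.3 and 80.6% the nearest to Olfr491, had log2 fold changes of 0.98 (SE 1.21) and 0.14 (SE 1.19). At 1% acetophenone Olfr147 had 20, 1 and 1 counts against 15, 2 and 0 in the controls, where Olfr923 had 357, 223 and 114 against 12, 23 and 4.

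Neighbours in the genome were mostly close to silent. Olfr922 and Olfr924, on either side of Olfr923, had at most 11 and 5 counts in any library, and Olfr984, beside Olfr983, at most 7. Olfr982, the other neighbour of Olfr983, had at most 11 counts in the acetophenone experiment and 33 in 1 library of 1% TMT. Olfr492, beside Olfr491, had 1 count in all. Olfr490, on the other side of Olfr491, had 0 and 11 counts in the controls of litters 1 and 2 and 8 and 91 at 100% (log2 3.10, SE 1.62, edgeR adjusted p = 1). At 1% it had 9, 1 and 4 counts against 3, 4 and 1 in the controls.

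Olfr1377 is the least certain of the 4 by read assignment. Its neighbours Olfr1378 and Olfr51 are also its nearest proteins, at 83.1 and 87.3% identity, and only 53.8% of the estimated counts of Olfr1377 in the acetophenone experiment were unique, 393 of 730.1. Both neighbours had at most 4 unique counts in any library. With estimated counts, which include reads with several alignments, its log2 fold change was 1.95 at 100% and 2.62 at 1%, close to the 2.12 and 2.98 of unique counts. The unique share was 100.0% for Olfr923, 84.7% for Olfr491 and 78.7% for Olfr983.

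Across the 23 libraries, with each litter centred on its mean, the genes most like each receptor were themselves often receptors. The measure was Pearson's r of log2(CPM + 1) over 12454 genes, given as a description, since the libraries share litters and depth. The 23 libraries also include those in which the chosen receptors were picked for a higher level with odor. Likeness among the chosen receptors is therefore partly fixed by the choice. The same holds for likeness to Olfr1104, the next receptor in that order that was higher with odor. Olfr923 was closest to Olfr983 (r = 0.871), Olfr1104 (0.860) and Olfr1026 (0.859). Olfr983 was closest to Olfr923 (0.871), Olfr821 (0.870) and Rif1 (0.860). Olfr491 was closest to Gm14023 (0.914) and to Olfr207 and Olfr208 (0.909), which share reads and are 1 measurement. Olfr1377 differed in this respect: its closest genes included Nadk2, a mitochondrial NAD kinase (0.908), and Tmem14a (0.815), and none of them was a receptor.

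Of a list of 11 other receptors, 9 had been tied to acetophenone by earlier results of these same libraries at 100%. Neither their direction nor their calls at 100% are independent evidence. These 9 were tested in litters 1 and 2. All 9 had positive fold changes, as had 64.9% of the 404 receptors, and none passed, with a median log2 fold change of 2.93 against 2.23 for the 4. With litters 1 to 3 and litter as a block, all 9 were among the 11 genes past the threshold, and so was 1 of the 4. Libraries that had served to pick the receptors entered that fit, so these counts do not rank the sets. At 1%, 6 were measured well enough to fit, and all 6 had positive fold changes, with a median of 2.05 and a range from 0.63 to 2.35, against a median of 2.68 and a range from 2.09 to 4.28 for the 4 that were chosen there. Olfr745 went from 54 to 168 counts in litter 3, from 25 to 60 in litter 4 and from 2 to 45 in litter 5. Olfr136 went from 34 to 137, from 18 to 48 and from 0 to 31 counts in the same litters, and Olfr1104 from 26 to 118, from 10 to 32 and from 0 to 5. These 3 were higher with odor in every litter. Olfr937 had 12, 4 and 3 counts against 2, 0 and 0 in the controls, and Olfr19 had 26, 3 and 7 against 17, 8 and 0. At 100%, Olfr937 had 25 and 122 counts in litters 1 and 2 against 1 and 3 in the controls. Olfr151 (M71), a receptor known for its response to acetophenone, had 0 unique counts in all libraries. Olfr160 (M72), its close relative, had 2, 44 and 20 unique counts at 100% in litters 1 to 3, against 3, 0 and 1 in their controls. In litters 3 to 5 it had 7, 4 and 6 at 1%, against 1, 2 and 2. It had at most 13 in the TMT experiment. Unique counts leave out reads with several alignments, so the 0 counts do not show that Olfr151 RNA was absent.

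Of 10 activity genes, 7 were tested at 100% acetophenone, 5 had positive fold changes and none passed, with a median of 1.76. The immediate early gene Egr1 had a log2 fold change of 2.16 (SE 0.88), Nr4a1 1.76 (SE 0.72), Fos 2.20 (SE 1.60) and the adhesion gene Pcdh10 2.14 (SE 1.15), all with an edgeR adjusted p of 1. The other 3 were Kirrel2 at 0.70, Junb at -0.14 and S100a5 at -0.19. At 1%, where the 4 receptors were chosen, 6 of the 7 had positive fitted values (3 when scaled to receptor counts), with a median of 0.42. They were 0.57 for Egr1, 0.02 for Nr4a1, 0.89 for Fos, 0.42 for Pcdh10, 0.13 for Junb, -0.42 for Kirrel2 and 0.98 for S100a5. S100a5, a calcium-binding protein gene of olfactory neurons, thus had the highest value of the list at 1% and the lowest at 100%. It went from 1095 to 1637 CPM in litter 3, from 1650.3 to 1521 in litter 4 and from 213 to 1245 in litter 5 at 1%, and from 1076 to 1044 and from 2688 to 2298 CPM in litters 1 and 2 at 100%.

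A list of 18 genes held members of the odorant signalling chain and also Omp, Stoml3, Ckb, Rtp1, Rtp2 and Reep1. Its counts therefore do not describe the signalling chain alone. Of the 18, 17 were tested at 100% acetophenone, 15 had positive fold changes and none passed. The median was 0.39, with a range from -0.26 to 0.58. Scaled to receptor counts, 4 of the 17 were positive. Gnal, the G protein subunit, had 0.33 (SE 0.54), the cyclase Adcy3 0.43 (SE 1.83) and the channel subunit Cnga2 0.41 (SE 0.32). At 1% the list had a median of -0.11, with 5 positive values among 17, and 0 positive values when scaled to receptor counts.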

How the data were processed

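The labels' notes on processing name Bowtie, bedtools and mm10; no tool version or annotation is given in the sources used here. Every deposited table has 20 unnamed value columns that never decrease along a row. Column 1 of these holds whole-number counts deposited by the authors, read from the values as uniquely aligned reads, and was used throughout. The final column, also deposited, was read as estimated counts with multiply aligned reads included, and was rounded for an alternative.

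Counts were compared in edgeR 4.0.16 (R 4.3.3) with TMM, filterByExpr (minimum count 10) and the 2-sided quasi-likelihood F test; p-values were adjusted by Benjamini-Hochberg over every gene of a fit, and 0.05 was the threshold. All 4 receptors passed the filter for acetophenone and 1 for TMT. At 100% acetophenone all 11 libraries entered 1 fit with separate means for litters 1 and 2, TMT used all 12 libraries, and the odor difference all 23. DESeq2 1.42.0 and other settings were alternatives. The scripts were tested on simulated data.

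Litter numbers pair libraries by the labels, so fits with litter as a block were run as alternatives. Only some of their values are printed above. Among the others, the blocked odor difference of Olfr1377 was -3.13, and the blocked log2 fold change of Olfr491 at 1% TMT was 1.93. Deviations of same-litter libraries from their group means correlated at 0.617 (100% acetophenone), 0.703 to 0.885 (1% acetophenone), 0.0541 to 0.32 (100% TMT) and 0.0162 to 0.358 (1% TMT) across genes. No 2 libraries were identical. The p-values measure the spread between these libraries. For a count of 0 the upper limit was set at 3 counts, divided by the unique total of the library without TMM scaling. Limits and intervals reflect counting error alone.

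The receptors, the gene lists and the tests were chosen with earlier results of these data known. Genes named besides the 4 were the 3 most alike, the 2 nearest proteins, the neighbouring receptors, the next 3 in the order at 1%, and the lists. One gene under this rule is not reported here. Sequences and positions come from GENCODE M21 on GRCm38. Of 1093 receptor proteins translated, 647 held the motif by which the windows were aligned.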

Additional observations from a re-analysis of the deposited data

Results flagged for a closer look

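In 16 sets of 4 or 5 libraries (each receptor in each group), 7 had 1 library far from the rest. The nominal rate of the rule is about 5% of sets. That rate need not hold where most counts are 0 and the receptors share libraries, so no excess is read from it. All 7 are TMT sets in which most libraries had counts of 0 or near it. Of the 7, 6 concern litter 1, whose 1% library also held the largest receptor share of the TMT experiment, 0.267%. In that litter the 1% TMT library read 4.05 CPM for Olfr923 (12 counts), 8.44 CPM for Olfr983 (25 counts), 1.01 CPM for Olfr1377 (3 counts) and 10.8 CPM for Olfr491 (32 counts), against at most 0.296 CPM in the other 1% libraries. The control of litter 1 read 0.718 CPM for Olfr1377 (3 counts) and 1.68 CPM for Olfr491 (7 counts). In the control of litter 3, Olfr983 read 0.426 CPM (3 counts) against 0 in the other controls.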

How the results depend on the processing

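At 100% acetophenone the direction held for Olfr923, Olfr983 and Olfr1377 in all 13 alternatives (log2 1.95 to 3.38, 1.55 to 2.84 and 0.45 to 2.88). Olfr491 ran from -0.42 without the 100% library of litter 2 to 2.27. The 0 calls became 11 genes, 1 of the 4 receptors among them, with litters 1 to 3 and litter as a replicate block; that call drew on a control used in the choice. In litters 1 and 2 the block also gave 0 calls, which says nothing about stability in a design of that size. At 100% TMT the 0 calls became 314 genes with the block, 463 with DESeq2, 18 scaled to receptor counts, 0 to 1 with single libraries left out, and 559 genes, 1 of them Olfr491, without a filter and with the block. At 1% TMT they became 1, 4, 3, 0 to 1 and 3 genes under the same settings. With single libraries left out, Olfr491 at 1% TMT ran from -1.56 (when the 1% library of litter 1 was dropped) to 5.17. The odor difference of Olfr983 ran from -3.16 to 0.0945, the latter when TMT litter 1 lost its 100% library. Scaled to receptor counts, that difference was 0.20. The causes were not tested. At 1% acetophenone all values stayed positive in 6 alternatives (1.66 to 4.94). Low receptor counts in the TMT libraries limit what they can show.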
